A study of Mus musculus with 18 samples.

Results

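CtIP A/A DNA-PKcs -/- cells were compared with DNA-PKcs -/- cells, both arrested in G2, by the joins they made at a RAG break. The comparison rests on the genotype and phase in the labels, which gave 2 libraries for each genotype, 4 of the 12 coding-join libraries and of the 18 samples in all. The 4 libraries held 13055 of the 30937 coding-join junctions of the series. Each library counted once, whatever its number of junctions.

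The cells were v-abl transformed B cells from strain 129 mice, an early B-lineage type kept dividing by a viral Abl kinase, with a stably integrated pMX-INV substrate that carries a pair of recombination signals. All 4 cultures were held in STI571, an Abl inhibitor that induces RAG, at 3 µM for 24 h and then in the CDK1 inhibitor RO3306 at 10 µM for 48 h. The G1 libraries quoted below came from cultures held in STI571 at 3 µM for 48 or 72 h, with no RO3306 listed. Values in G1 and G2 therefore differ in drug exposure as well as in phase. All 4 lacked DNA-PKcs, so the comparison asks what the CtIP A/A genotype adds in its absence. The labels name no line, clone or culture, so genotype cannot be told apart from cell line, and a p-value measures only how these samples vary, which may be technical. The tables do not measure CtIP or DNA-PKcs themselves. In high-throughput genome-wide translocation sequencing (HTGTS), a primer beside 1 broken end, the bait, reads into whatever that end was joined to, the prey. The bait here was a coding end of the substrate.

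RAG cuts beside a recombination signal and leaves a blunt signal end and a coding end sealed as a hairpin. In classical end joining, DNA-PKcs and Artemis open the hairpin, and the opened ends are ligated as a coding join. CtIP starts the resection of broken ends, which exposes single strands that can pair at short homologies, and the A/A allele puts alanine at a conserved ATM/ATR phosphorylation site. Lines without DNA-PKcs are known to accumulate unopened coding ends.

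The sequences below show the J segment ends of Igk, the immunoglobulin kappa light chain locus, where V segments are joined to J segments. Most Igk junctions of each library lay elsewhere in the locus, as given below. Each J segment is shown over 60 bases of the mm10 assembly (GRCm38.p6), plus strand, with the heptamer of its recombination signal in capitals; the coding sequence follows the heptamer.

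Igkj1, chr6:70722523-70722582: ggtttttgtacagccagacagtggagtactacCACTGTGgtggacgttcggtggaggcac
Igkj2, chr6:70722877-70722936: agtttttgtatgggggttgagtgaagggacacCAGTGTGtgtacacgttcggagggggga
Igkj3, chr6:70723184-70723243: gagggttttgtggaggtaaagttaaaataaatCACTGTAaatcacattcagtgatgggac
Igkj4, chr6:70723509-70723568: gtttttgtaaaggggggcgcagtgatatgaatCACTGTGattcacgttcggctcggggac
Igkj5, chr6:70723847-70723906: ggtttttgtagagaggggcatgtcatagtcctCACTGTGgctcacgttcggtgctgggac

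Igkj1, Igkj4 and Igkj5 carry the heptamer CACTGTG, which also flanks both coding ends of the substrate. Igkj3 carries CACTGTA and took no join in any of the 4 libraries.

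The CtIP A/A DNA-PKcs -/- libraries held 4170 and 2841 junctions, and the DNA-PKcs -/- libraries held 3663 and 2381, replicate 1 first in each pair. A count of 0 in them allows a share of up to 0.0719% to 0.126% of all junctions. The amplified reads carry no molecular identifiers and may repeat a molecule, so intervals and floors here describe counting error alone. Replicate 1 of both genotypes came from sequencing run 1 and replicate 2 of both from run 2. CtIP A/A DNA-PKcs -/- replicate 2 stood apart from the other 3 in telomere joins and hybrid joins, described below, and the results that rest on it are also given without it. It also held a chromosome 3 cluster that the other 3 lacked, but both DNA-PKcs -/- libraries held clusters of their own.

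Over 12 measures, covering prey place, deletion at both coding ends, homology and insertion, the 2 genotypes did not overlap in 3, which is 25.0% of those measured. The 3 measures were the share of antigen receptor loci, the median partner deletion and the share of partner deletions over 20 bp. None passed the two-sided exact permutation test, which with 2 libraries against 2 has 6 arrangements and cannot go below p = 0.333. That is also the probability that a measure with no difference separates 2 libraries from 2, so a share of 25.0% is no more than labels given at random would yield. The exact p ranged from 0.333 to 1 and its Benjamini-Hochberg adjusted value from 0.889 to 1, so 0 of 12 (0.00%) passed 0.05. In 7 of the 12 measures the difference had the opposite sign in run 1 and run 2. The same difference in cells with DNA-PKcs was subtracted and CtIP labels were permuted within DNA-PKcs status over the 8 G2 libraries. This exact permutation test assumes no CtIP difference in either DNA-PKcs status, so it cannot tell whether a difference is particular to DNA-PKcs-null cells. With 36 arrangements the exact permutation test cannot go below p = 0.0556, so no measure could pass 0.05. The exact permutation p ranged from 0.167 to 1 and its adjusted value from 0.800 to 1.

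**Figure D1:**
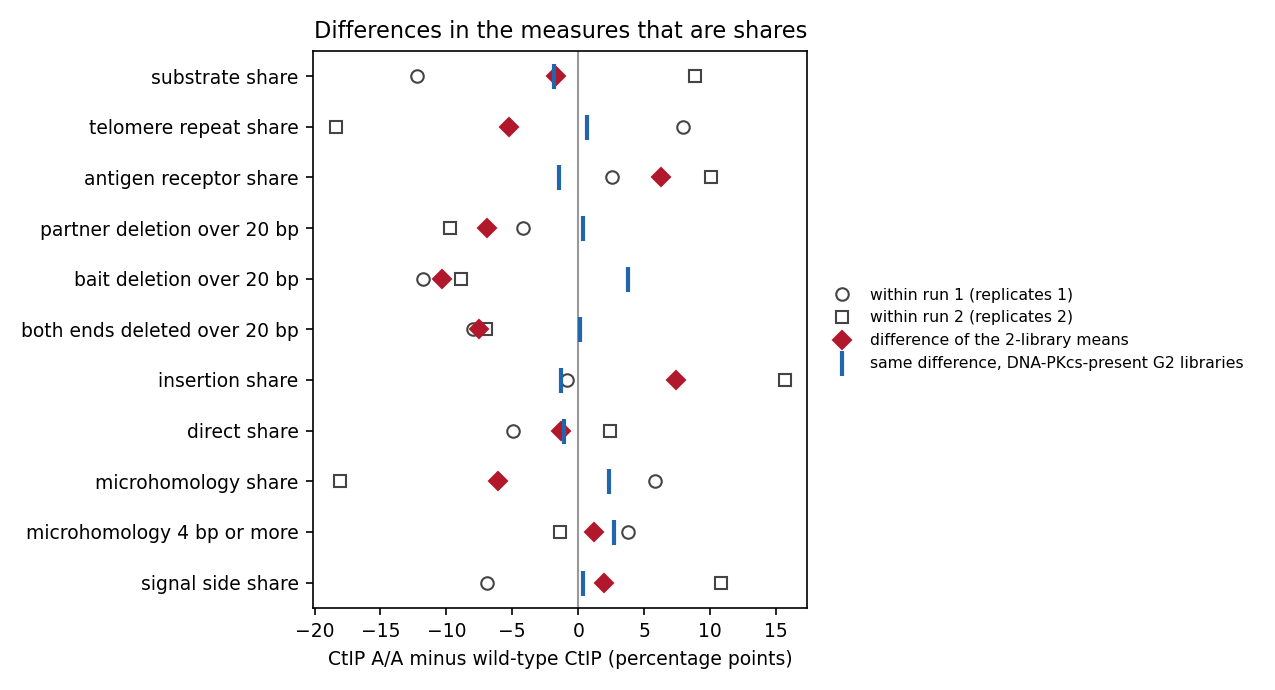
Difference between CtIP A/A and wild-type CtIP in the 11 measures that are shares, in percentage points, within each sequencing run (open symbols), for the 2-library means (diamonds) and for the G2 libraries with DNA-PKcs (vertical ticks). The 3 deletion shares lie left of 0 and the antigen receptor share right of 0 in both runs, while 7 measures have open symbols on opposite sides of 0.

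Telomere repeat took more junctions than the substrate in 3 of the 4 libraries and slightly fewer, 901 against 920, in CtIP A/A DNA-PKcs -/- replicate 2. Such prey, counted where the prey alignment held at least 3 exact repeat units in a row, took 68.0% and 31.7% of the junctions in CtIP A/A DNA-PKcs -/- and 60.0% and 50.1% in DNA-PKcs -/-. The CtIP A/A pair thus held both the highest and the lowest value, and its mean of 49.8% ± 25.6 (SD, n = 2) lay 5.22 percentage points below 55.1% ± 7.0 (SD, n = 2), with exact p = 1. Without CtIP A/A DNA-PKcs -/- replicate 2 the difference was 12.9 points in the other direction. The substrate took 11.0% and 32.4% of the junctions against 23.2% and 23.6%, again with the CtIP A/A values on both sides of the others (exact p = 1).

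**Figure D2:**
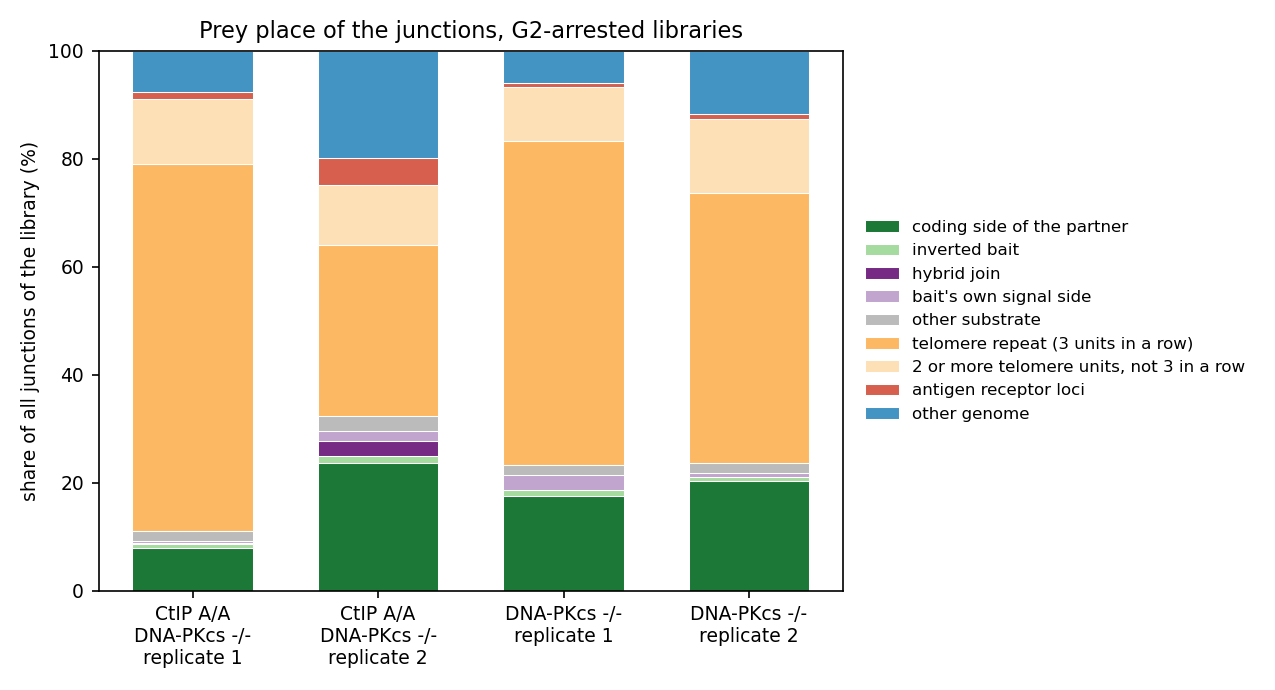
Share of each library's junctions by prey place, in percent, as stacked bars that sum to 100 for each of the 4 G2 libraries. Telomere repeat takes from 31.7% to 68.0% of a library and the coding side of the partner from 7.91% to 23.7%.

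Telomere joins were almost all in 1 orientation and merged into far fewer events than lines. The C-rich strand followed the bait in 99.9% and 99.4% of the telomere lines in CtIP A/A DNA-PKcs -/- and in 99.8% and 99.7% in DNA-PKcs -/-. To count events, lines that shared the bait end and the next 12 bases, with up to 2 mismatches, were merged. This gave 240 and 73 events in CtIP A/A DNA-PKcs -/- and 196 and 105 in DNA-PKcs -/-. Separate joins into a repeat of 6 bp can share these bases, so 1 event may hold several joins. Replicate 1 of CtIP A/A DNA-PKcs -/- and replicate 2 of DNA-PKcs -/-, from different runs, shared 27 combinations of bait end and 12 bases. The 5 largest events held 27.9% and 75.7% of the telomere lines against 34.9% and 46.4%. By this count replicate 2 of CtIP A/A DNA-PKcs -/- was the most concentrated library. The largest single event held 286 of 2834 and 275 of 901 lines, against 225 of 2198 and 178 of 1193. It had lost 120 and 77 bp from the bait coding end in CtIP A/A DNA-PKcs -/- and 90 and 18 bp in DNA-PKcs -/-. Counted per event, bait deletions over 20 bp made up 59.2% and 45.2% in CtIP A/A DNA-PKcs -/- and 65.8% and 39.0% in DNA-PKcs -/-. The CtIP A/A values lay between those of DNA-PKcs -/- in this measure.

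A further 508 and 313 junctions in CtIP A/A DNA-PKcs -/- and 370 and 326 in DNA-PKcs -/- held 2 or more units, but not 3 in a row. They were 57.9% and 30.7% of the genome junctions left after the first definition, against 60.2% and 52.0%. With them, telomere-like prey came to 80.1% and 42.7% of the junctions against 70.1% and 63.8%. These lines are kept out of the genome counts below, which are called genome junctions without telomere units.

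The comparison of coding joins asks how much sequence was lost and how the ends met. A coding join was a substrate junction in the orientation of the main prey peak and within 1000 bp of it, and there were 378 and 726 in CtIP A/A DNA-PKcs -/- and 702 and 509 in DNA-PKcs -/-. Of these, 330 and 672 against 642 and 483 lay from the partner heptamer on. The other 48 and 54 against 60 and 26 lay before it, mostly on inverted bait sequence, and count as a partner deletion of 0 bp. Coding ends were set at the commonest bait end, substrate position 1947, and the commonest prey position, 2811, over the 12 libraries. The first coding bases by the heptamers are 1943 and 2813.

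Deletions at the partner end were slightly shorter in both CtIP A/A libraries by the definition above. This difference did not pass the test, and under some other definitions the genotypes overlapped. The median partner deletion was 16 bp in both CtIP A/A libraries and 17 bp in both others, a difference of -1 bp. Partner deletions over 20 bp made up 37.3% and 30.6% of coding joins in CtIP A/A DNA-PKcs -/- and 41.5% and 40.3% in DNA-PKcs -/-. The genotypes did not overlap, and the means of 33.9% ± 4.75 and 40.9% ± 0.833 (SD, n = 2 each) differed by -6.92 percentage points (exact p = 0.333, adjusted 0.889). Without CtIP A/A DNA-PKcs -/- replicate 2 the difference was -3.56 points. With a threshold of 10 bp it was -1.84 points (exact p = 0.667) and with 50 bp -1.51 points (exact p = 1), and the genotypes overlapped at both thresholds. They also overlapped within 200 bp of the main prey peak, in the share (-6.43 points, exact p = 0.667) and in the median (exact p = 1). With coding ends at the heptamer borders, a setting chosen after seeing the data, the genotypes did not overlap. The differences there were -6.15 points in the share and -1 bp in the median, each with exact p = 0.333. Over joins from the partner heptamer on, the shares were 42.7% and 33.0% against 45.3% and 42.4% and the medians 18 and 17 bp against 18 and 18 bp, so that the genotypes overlapped in both (exact p = 0.667 for the share and 1 for the median). In G1, with 1 library of each genotype and no test, the share was 53.3% in CtIP A/A DNA-PKcs -/- and 48.5% in DNA-PKcs -/-, a difference in the other direction.

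The share of long deletions at the bait end was lower in CtIP A/A DNA-PKcs -/- within each run and overlapped across runs. Bait deletions over 20 bp made up 45.2% and 32.8% of coding joins in CtIP A/A DNA-PKcs -/- and 57.0% and 41.7% in DNA-PKcs -/-. The genotypes overlapped, because replicate 1 was above replicate 2 in both, and the difference was -11.7 points in run 1 and -8.87 points in run 2. The means of 39.0% ± 8.81 and 49.3% ± 10.8 (SD, n = 2 each) differed by -10.3 points (exact p = 0.667). Every library moved this value by over 1.5 times when left out: it was -2.64 points without DNA-PKcs -/- replicate 1 and -18.0 without its replicate 2, and -16.5 and -4.08 points without replicates 1 and 2 of CtIP A/A DNA-PKcs -/-. The genotypes did not overlap with a threshold of 10 bp (-7.38 points) or within 200 bp of the main prey peak (-12.5 points), each with exact p = 0.333, and overlapped with a threshold of 50 bp (-4.46 points, exact p = 1). Over joins from the partner heptamer on, the shares over 20 bp were 39.7% and 29.5% against 54.4% and 39.5%. The genotypes overlapped there too (-12.4 points, exact p = 0.667). Median bait deletions over all coding joins were 18 and 12.5 bp against 27 and 16 bp. The longest class differed between the runs more than between the genotypes. Bait deletions over 100 bp were 11.9% and 4.96% of coding joins in CtIP A/A DNA-PKcs -/- and 14.4% and 4.32% in DNA-PKcs -/-. Joins on inverted bait sequence are counted here, with median bait deletions of 118 and 96 bp against 118.5 and 116 bp.

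Long deletions occurred together at the partner and bait ends in all 4 libraries. Among coding joins with a partner deletion over 20 bp, the bait end had also lost over 20 bp in 63.8% and 46.4% of CtIP A/A DNA-PKcs -/- joins and in 76.6% and 52.7% of DNA-PKcs -/- joins. Among joins with a shorter partner deletion the shares were 34.2% and 26.8% against 43.1% and 34.2%. Joins with over 20 bp lost at both ends made up 23.8% and 14.2% of coding joins against 31.8% and 21.2%. Their means differed by -7.49 points, with overlapping genotypes and exact p = 0.667. Leaving out 1 library gave -12.3 and -2.68 points for replicates 1 and 2 of CtIP A/A DNA-PKcs -/- and -2.22 and -12.8 for those of DNA-PKcs -/-. With a threshold of 10 bp at both ends the genotypes did not overlap (-5.50 points, exact p = 0.333). In cells with DNA-PKcs the CtIP difference in the share with over 20 bp lost at both ends was 0.110 points. It rested on few joins, 8 of 303 and 16 of 331 in CtIP A/A and 3 of 322 and 11 of 174 in wild type. The difference between the 2 differences was -7.60 points (exact p = 0.444, adjusted 0.857, by permutation of CtIP labels within DNA-PKcs status). For the bait share alone it was -14.1 points and for the partner share -7.27 points (exact p = 0.222 and adjusted 0.800 for each).

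**Figure D3:**
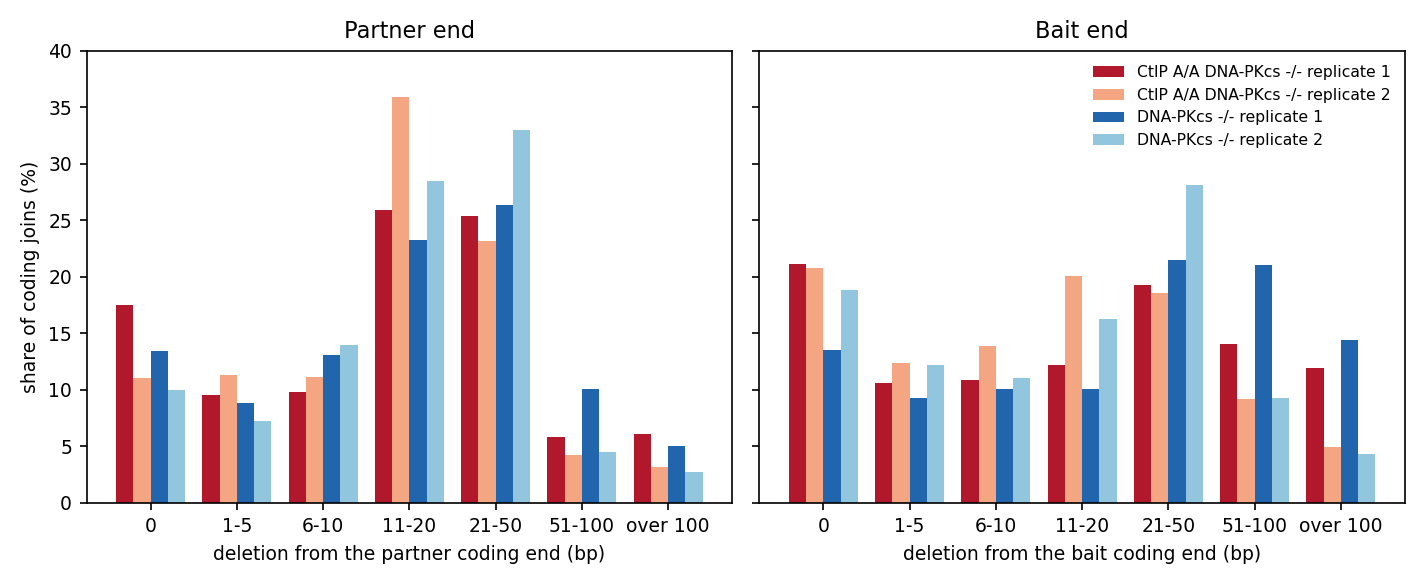
Share of coding joins, in percent, by the deletion from the partner coding end (left) and the bait coding end (right), in bp, for each of the 4 G2 libraries. The partner class of 21 to 50 bp holds 25.4% and 23.1% of joins in CtIP A/A DNA-PKcs -/- and 26.4% and 33.0% in DNA-PKcs -/-. The class of 0 bp includes joins that lie before the partner heptamer.

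Substrate positions were ranked by their mean share over the 4 libraries. Prey position 2829 ranked first, with 4.37% and 5.54% of substrate junctions in CtIP A/A DNA-PKcs -/- and 3.06% and 4.81% in DNA-PKcs -/-. It lies 18 bp past the partner coding end as set here. Position 2811, which was set as the partner coding end and lies within the partner heptamer, took 3.28% and 2.61% against 3.53% and 3.74%. Positions 2824, 2825 and 2827 completed the 5 commonest. The 5 commonest bait ends were 1941, 1951, 1942, 1955 and 1947. Position 1941, which lies within the bait heptamer, took 4.76% and 4.68% of coding joins in CtIP A/A DNA-PKcs -/- and 2.71% and 2.75% in DNA-PKcs -/-. Between any 2 of the 4 libraries, 102 to 150 exact substrate junctions were shared, and 0 to 3 genome junctions without telomere units. Telomere joins shared 7 to 63 combinations of bait end and next 12 bases, with the most between the 2 libraries of run 1.

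Inserted and homology-bearing joins differed more within the CtIP A/A pair than between the genotypes. Insertions were found in 20.4% and 32.4% of coding joins in CtIP A/A DNA-PKcs -/- and in 21.2% and 16.7% in DNA-PKcs -/-. The genotypes overlapped, with means of 26.4% ± 8.48 and 19.0% ± 3.20 (SD, n = 2 each) and exact p = 0.667. The difference was -0.855 points in run 1 and 15.7 points in run 2. Insertions of 1 to 3 bp accounted for 15.6% and 24.9% of coding joins against 15.5% and 11.4%. The median insertion was 2 bp in all 4 libraries. G and C made up 67.2% and 66.6% of the inserted bases in CtIP A/A DNA-PKcs -/- and 66.3% and 62.5% in DNA-PKcs -/-.

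Homology of 1 bp or more, an overlap of both alignments, was present in 50.3% and 33.6% of coding joins in CtIP A/A DNA-PKcs -/- and in 44.4% and 51.7% in DNA-PKcs -/-. Replicate 2 of CtIP A/A DNA-PKcs -/- was the lowest of the 4 and replicate 1 lay within the range of DNA-PKcs -/-. The difference of -6.12 points (exact p = 0.667) became 2.21 points without that replicate 2. Homology of 4 bp or more was present in 11.9% and 6.06% against 8.12% and 7.47%, and direct joins made up 29.4% and 34.0% against 34.3% and 31.6%. Both measures overlapped between the genotypes (exact p = 1 and 0.667). Over joins from the partner heptamer on, the mean share with 4 bp or more was 3.68% in CtIP A/A DNA-PKcs -/- and 4.12% in DNA-PKcs -/-. Over all coding joins it was 8.98% and 7.79%, so long homology was concentrated in joins before the heptamer.

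**Figure D4:**
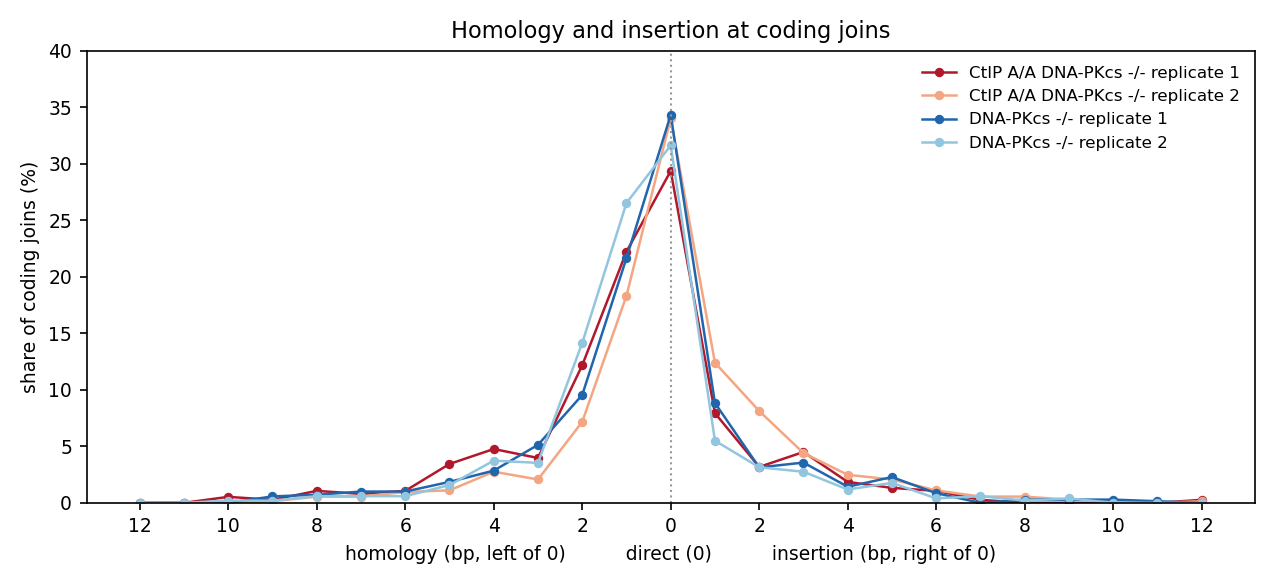
Share of coding joins, in percent, by length of homology (left of 0) or of insertion (right of 0), in bp, one line for each of the 4 G2 libraries. CtIP A/A DNA-PKcs -/- replicate 2 has the highest shares at insertions of 1 and 2 bp and the lowest at homologies of 1 to 3 bp; the lines of the other 3 libraries cross.

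Within each library, inserted joins were rarer and homology commoner where the partner deletion was long. Among joins from the partner heptamer on, those with a partner deletion of up to 20 bp had insertions in 32.3% and 41.3% of cases in CtIP A/A DNA-PKcs -/- and in 34.5% and 22.7% in DNA-PKcs -/-. Those with longer deletions had insertions in 7.09% and 16.7% against 6.53% and 7.80%. Homology, with alignments cut back to the heptamer borders, ran the other way, at 30.2% and 20.9% against 25.9% and 36.3% for the shorter deletions and 55.3% and 40.1% against 51.9% and 53.2% for the longer. All 4 libraries showed both patterns.

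Joins onto the signal sides of the substrate were few and unevenly spread. A hybrid join links the bait coding end to the partner's signal end, which a normal reaction ligates to the other signal end. Prey within 500 bp on a signal side was counted, for the partner and for the bait, and most of it did not meet the signal end itself. In replicate 1, hybrid joins at the signal end were 1 of 7 in CtIP A/A DNA-PKcs -/- and 0 of 5 in DNA-PKcs -/-. There were 7 and 78 hybrid joins in CtIP A/A DNA-PKcs -/- and 5 and 0 in DNA-PKcs -/-, where a count of 0 of 2381 junctions allows up to 0.126%. All 78 were distinct, 31 of them carried an insertion and 20 joined the signal end without loss. Of those 20, 16 began with the reverse complement of the first 39 bases of the Igkj1 line printed above, so the partner signal of the substrate and the Igkj1 signal share that sequence. The G1 libraries held 82 hybrid joins among 7068 junctions (1.16%) in CtIP A/A DNA-PKcs -/- and 56 among 5042 (1.11%) in DNA-PKcs -/-. Prey on the signal side of the bait itself numbered 19 and 51 against 102 and 18, of which 2 and 9 against 6 and 1 lay at the signal end. The 2 kinds together made up 5.68% and 14.0% of substrate junctions in CtIP A/A DNA-PKcs -/- and 12.6% and 3.21% in DNA-PKcs -/-, which overlapped (exact p = 0.667).

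Antigen receptor loci took a higher share in both CtIP A/A libraries, a difference that did not pass the test. The 6 loci took 6.26% and 14.4% of genome junctions outside telomere repeat in CtIP A/A DNA-PKcs -/- and 3.74% and 4.31% in DNA-PKcs -/-. The genotypes did not overlap, and the means of 10.3% ± 5.76 and 4.02% ± 0.40 (SD, n = 2 each) differed by 6.31 percentage points (exact p = 0.333, adjusted 0.889). The difference was 2.24 points without CtIP A/A DNA-PKcs -/- replicate 2 and 10.4 points without its replicate 1. With junctions that held 2 telomere units and the 6 local clusters described below left out, the shares were 14.4% and 27.4% against 15.0% and 12.4%, so that the genotypes overlapped (exact p = 0.667). In cells with DNA-PKcs the difference was -1.47 points. The difference between the 2 differences was 7.79 points (exact p = 0.278, adjusted 0.800, by permutation of CtIP labels within DNA-PKcs status). In G1 the share was 23.8% in the 1 library of CtIP A/A DNA-PKcs -/- and 10.1% in the 1 library of DNA-PKcs -/-.

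The denominator bears on this share. Among genome junctions without telomere units it was 14.3% and 20.4% against 9.39% and 7.64%, which still did not overlap. Local clusters, described below, held 37.6% and 38.5% of those junctions in DNA-PKcs -/- and 0.811% and 25.7% in CtIP A/A DNA-PKcs -/-. With the clusters also left out, the share was 14.4% and 27.4% against 15.0% and 12.4%, the genotypes overlapped and exact p was 0.667.

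Igk, on chromosome 6 from 67555497 to 70726966, held most of the receptor joins. Without telomere units, Igk took 49 and 119 junctions in CtIP A/A DNA-PKcs -/- and 18 and 20 in DNA-PKcs -/-. Igh, the heavy chain locus on chromosome 12, took 4 and 17 against 1 and 1. Tcrg, the T cell receptor gamma locus, took 0 and 5 against 4 and 2, and Igl, the lambda light chain locus, took 0 and 3 against 0 and 0. Tcra/Tcrd and Tcrb took none in the 4 libraries.

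Coding-side joins, which start no more than 5 bp upstream or 50 bp downstream of where a segment begins, numbered 11 and 35 in CtIP A/A DNA-PKcs -/- and 0 and 2 in DNA-PKcs -/-. They were 2.97% (95% Wilson interval 1.67 to 5.24) and 4.95% (3.58 to 6.81) of genome junctions without telomere units. In DNA-PKcs -/- replicate 1, a count of 0 of 245 allows up to 1.22%, and in replicate 2 the share was 0.664% (0.182 to 2.39). The genotypes did not overlap in this count, which was chosen with earlier results known and was not tested. The G1 libraries held 144 coding-side joins in CtIP A/A DNA-PKcs -/- and 24 in DNA-PKcs -/-, or 8.57% and 3.35% of genome junctions without telomere units. Igkj1 took 8 of the 11 and 23 of the 35. The median loss from the J coding end was 11 bp in both CtIP A/A libraries. Signal-side joins at the J segments numbered 0 and 10 against 0 and 0. Of the 10, 5 were at Igkj1, and all 5 alignments ran past the bases shared with the substrate.

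Elsewhere in Igk there were 38 and 74 junctions in CtIP A/A DNA-PKcs -/- and 18 and 18 in DNA-PKcs -/-. Within 50 bp of the end of a V segment lay 19 and 43 of them against 11 and 11. A B cell line with active RAG is known to cut its own kappa locus, and DNA-PKcs -/- replicate 1 was the only library of the 4 without a join at a J kappa segment.

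**Figure D5:**
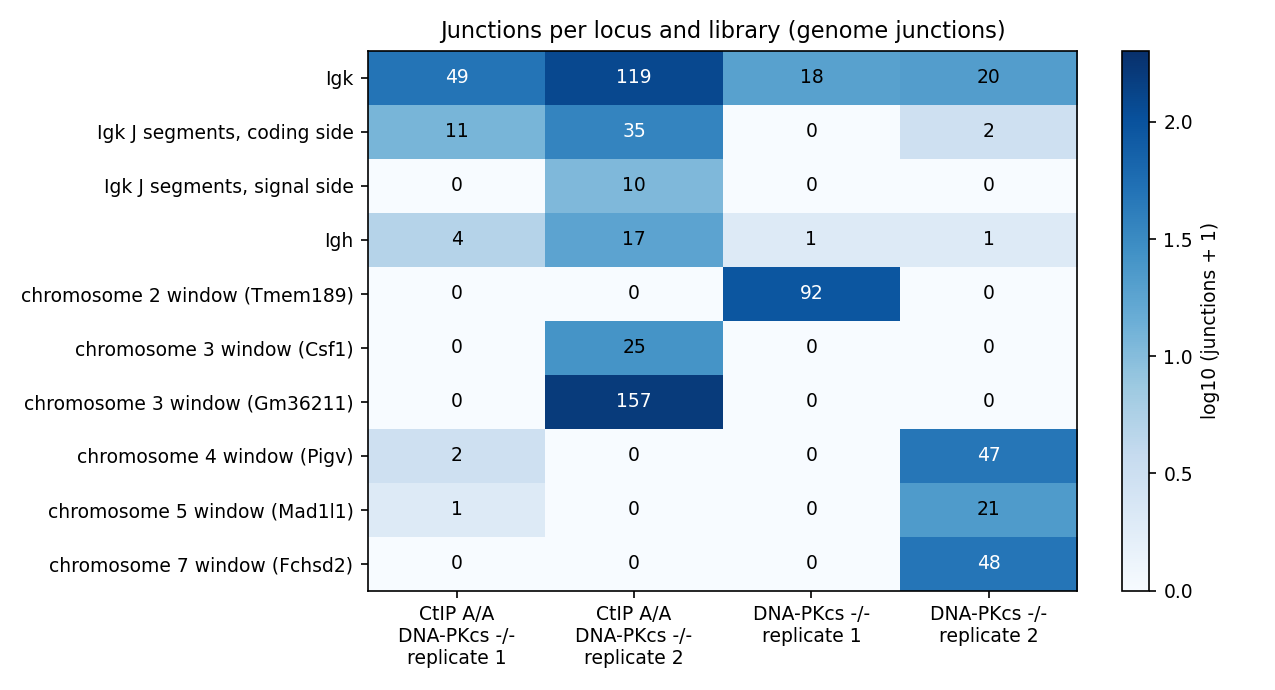
Number of junctions per library at Igk, at the coding and signal sides of its J segments, at Igh and in the 6 local windows, with the count printed in each cell and a log10 colour scale. Igk counts are 49 and 119 in CtIP A/A DNA-PKcs -/- and 18 and 20 in DNA-PKcs -/-; each local window above 10 junctions belongs to 1 library.

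Local clusters differed between libraries of the same genotype. Outside the receptor loci, 12 windows of 200 kb held 10 or more junctions and at least 2% of the genome junctions of 1 library, and 6 of them consisted mostly of prey with telomere units. In the other 6, CtIP A/A DNA-PKcs -/- replicate 1 had 3 junctions in all. Replicate 2 had 157 junctions on chromosome 3 between 107816776 and 107867659, of which 145 were intergenic and 12 in Gm36211. It had 25 more in the neighbouring window, of which 17 were in Csf1, the gene of a macrophage growth factor. DNA-PKcs -/- replicate 1 had 92 junctions on chromosome 2 between 167684765 and 167775346, of which 8 were in Tmem189 and 79 intergenic. The same window held 93 junctions in the G1 library of DNA-PKcs -/- and 67 in that of WT. WT G2 replicate 1 held 6 there, 4.69% of its 128 genome junctions, against 6.36% of 1462 and 3.79% of 1769 in those G1 libraries. DNA-PKcs -/- replicate 2 had 47 in a chromosome 4 window, of which 36 were in Pigv, a gene of GPI anchor synthesis. It also had 21 in Mad1l1, a spindle checkpoint gene on chromosome 5, and 48 in a chromosome 7 window, of which 47 were in Fchsd2. None of the 6 windows held more than 2 junctions in another of the 4 libraries.

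The remaining genome junctions were dispersed over 19 or 20 chromosomes and numbered 310 and 374 in CtIP A/A DNA-PKcs -/- and 128 and 158 in DNA-PKcs -/-. The bait end had lost over 20 bp in 52.6% and 58.3% of them against 82.8% and 63.3%, and homology was present in 70.3% and 54.0% against 53.9% and 41.8%. The genotypes did not overlap in either share, though the homology values 54.0% and 53.9% were nearly equal, and neither was tested. Of the 8 translocation partner genes listed, Myc, Pvt1, Ccnd1, Ccnd2, Bcl6, Mycn, Notch1 and Pax5, none took a junction in the 4 libraries.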

How the data were processed

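The members, lists and tests were chosen with earlier results of these data known. Each deposited table lists 1 junction per line, with base positions, strands, read positions and the read sequence, per the file headers, and no normalization. Reads were aligned with Bowtie2 to mm10, per the submitters' processing notes, with the substrate as an added chromosome, per the labels' protocols; the junction caller, its filters and the versions are not given in the sources used here. Samples cut with I-PpoI are not analysed here, and the sequences of the telomere joins are not reported here.

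Libraries were grouped by genotype and phase. Homology was scored where both alignments of a read covered the same bases, and insertion where bases between them aligned to neither. Alignment can run past a coding end by chance letters. Repeats of an identical junction, 0.384% to 1.02% of the lines, were kept, and 3 to 13 lines per library carried uncut bases. Named loci were the 6 receptor loci, the Igk J segments, the 5 commonest substrate positions and bait ends, windows of 200 kb that held 10 or more junctions and at least 2% of the genome junctions of 1 library, and 8 translocation genes. Genes come from GENCODE M21. Of 1228 chromosome 6 junctions with matching alignments, 1228 equalled GRCm38.p6.

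Tests were two-sided exact permutations over libraries, adjusted by Benjamini-Hochberg over 12 measures, and were tested on simulated data. Alternatives covered the window, thresholds, coding ends, trimming, duplicates, depth, telomere definition, the replicate block and each library left out. Python 3.11.15, numpy 2.4.6, pandas 2.3.3, scipy 1.17.1 and matplotlib 3.10.9 were used.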

Additional observations from a re-analysis of the deposited data

How the results depend on the processing

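Over 148 alternatives the difference changed sign in 12, and the exact p stayed between 0.333 and 1, so that no alternative could carry a measure past 0.05 with 2 libraries a genotype. The share of antigen receptor loci, the 4 deletion measures and the insertion share never changed sign. Apart from leaving out a library, the genotypes came to overlap in 7 alternatives, among them the receptor share with local windows left out (7.20, exact p = 0.667) and the partner deletions with a 200 bp window or another threshold. They ceased to overlap in 5: bait deletions in a 200 bp window or over 10 bp, both ends over 10 bp, and insertions (8.69) and direct joins (-2.17) with alignments trimmed and prey from the partner heptamer on. Leaving out 1 library at a time gave differences, in percentage points unless stated, of -12.4 to 9.0 for the substrate share, -23.3 to 12.9 for telomere repeat, 2.24 to 10.4 for antigen receptor loci, -1 to -1 bp for the median partner deletion, -10.3 to -3.56 for partner and -18.0 to -2.64 for bait deletions over 20 bp, and -12.8 to -2.22 for both. The ranges were 1.41 to 13.4 for insertions, -3.62 to 1.04 for direct joins, -14.4 to 2.21 for homology, -1.73 to 4.11 for homology of 4 bp or more and -2.74 to 6.64 for signal-side joins. Signs changed without CtIP A/A DNA-PKcs -/- replicate 1 for the substrate share (9.0), direct joins (1.04) and long homology (-1.73), and without its replicate 2 for telomere repeat (12.9), homology (2.21) and signal-side joins (-2.22). They changed without DNA-PKcs -/- replicate 1 for direct joins (0.0629) and without replicate 2 for signal-side joins (-2.74). Direct joins came to 2.82 with inserted joins left out. Long homology came to -0.270 in a 200 bp window, -0.436 over joins from the partner heptamer on and -0.642 with alignments also trimmed; the cause was not tested. The replicate number marks the sequencing run; with it as a replicate block the differences were the same, with exact p from 0.5, the smallest its 4 arrangements allow, to 1. The alternatives with coding ends at the heptamer borders, with 2 telomere units and with local windows left out were chosen after seeing the data.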
